A study of Mus musculus with 6 samples.

Results

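The expression of 9 genes of fatty acid uptake and lipid binding was followed in the mouse heart: Lpl, Gpihbp1, Angptl4, Cd36, Slc27a1, Fabp3, Fabp4, Fabp5 and Rbp7. They were picked by name from the 30914 genes of the expression table, and all 9 were found and passed the filter on low values. Both groups were male wild-type C57BL/6J mice, 8 weeks old at the start, infused for 4 weeks with angiotensin II (Ang II, 1 μg/kg/min) from an osmotic pump, a treatment that enlarges the heart. The Ang II + Tec mice also received the flavonoid tectochrysin (Tec, 5 mg/kg) over the final 2 weeks of the infusion, and each group held 3 libraries of heart poly(A) RNA. Every library came from an Ang II mouse, so the values say nothing of how the genes stand in an untreated heart. The genes were proposed with this comparison in view. Their differences between the groups are therefore a description and not evidence for a direction.

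The heart burns mostly fatty acids, which reach it bound to albumin or inside lipoprotein particles. Lipoprotein lipase, encoded by Lpl, frees fatty acids from the triglycerides of these particles, Gpihbp1 carries the enzyme across the capillary endothelium and holds it at the luminal surface, and Angptl4 inactivates it. Cd36 is the main fatty acid translocase of endothelial cells and cardiomyocytes, and Slc27a1 encodes the fatty acid transport protein FATP1. Inside the cell, fatty acids are bound by small cytosolic proteins, of which Fabp3 is the heart form, Fabp4 is known from adipocytes, capillary endothelium and macrophages, and Fabp5 from epidermis, endothelium and macrophages. Rbp7, a cytosolic retinol binding protein of the same family, is known from adipose tissue and endothelium. Many of these genes are targets of the nuclear receptors of the PPAR family.

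Levels are given as FPKM, a fragment count scaled to transcript length and to all mapped fragments, in the order of replicates 1, 2 and 3 of each group. A difference is the Ang II + Tec mean minus the Ang II mean of log2(FPKM + 1), with its standard error (SE) from limma. A gene was called at an adjusted p under 0.05, with an absolute difference of at least 1. Of the 13089 genes tested, 21 were called (0.16%, with 0.0764% lower and 0.084% higher with Tec), and 1 of the 9 members was among them (Rbp7). Because the members were chosen on this contrast, nothing is read from that count. Most genes were lower with Tec in the values as deposited. The median difference of all tested genes was -0.17, and 80% of them had a lower mean with Tec. A difference near -0.17 was thus that of the typical gene. Scaling the libraries by the median of ratios moved this median to 0.01 and the share of genes with a lower mean to 48.2%.

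Some libraries stood apart from others of their group. Myl7, an atrial myosin light chain, was at 418.96, 332.29 and 0 FPKM without Tec and at 0, 1039.78 and 1.58 FPKM with it, and the summed FPKM of 6 atrial markers ranged from 265 to 10276 and from 137 to 5112. The libraries with much atrial RNA were thus replicates 1 and 2 of Ang II and replicate 2 of Ang II + Tec. The last also had the highest summed FPKM of 10 adipocyte markers (161, against 17.7 to 60.1 in the other libraries), and the brown fat gene Ucp1 was at 18.29 FPKM there and at most 0.62 elsewhere. Fibroblast markers summed to 705, 929 and 163 FPKM in the Ang II group, where replicate 3 lay within the range of 136 to 221 seen with Tec. Cardiomyocyte markers were abundant in every library (sums of 14448 to 18779 FPKM, none of 10 at 0), so the markers of the labelled tissue were present, although the protocol text speaks of adipose material. Transcripts of the mitochondrial genome took 40.1% to 48.9% of FPKM without Tec and 49.6% to 52.5% with it. Relative depth, read from the smallest steps of FPKM, ranged from 0.951 to 1.28 of that of Ang II replicate 1, and the depth itself is unknown.

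The start regions of Rbp7 and Cd36 are shown because these genes had the lowest and the highest differences among the members. The RefSeq promoter table (GRCm38.p6, 250 bases before to 50 bases after a start site) held windows for 4 of the 9 members, Rbp7, Fabp3, Cd36 and Slc27a1. The windows were searched on both strands for AGGTCA (the nuclear receptor half-site), GGGCGG (the GC box), CCAAT and TATAAA, and matches are in capitals. Both lie on the minus strand, chr4:149454919-149455218 for Rbp7 and chr5:17835847-17836146 for Cd36, and are written 5′ to 3′ along the gene.
Rbp7: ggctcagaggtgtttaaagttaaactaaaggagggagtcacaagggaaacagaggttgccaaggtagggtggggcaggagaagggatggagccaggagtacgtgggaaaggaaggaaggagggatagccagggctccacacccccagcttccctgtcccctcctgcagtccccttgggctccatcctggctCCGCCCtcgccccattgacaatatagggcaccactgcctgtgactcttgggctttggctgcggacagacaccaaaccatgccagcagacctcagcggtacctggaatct
Cd36: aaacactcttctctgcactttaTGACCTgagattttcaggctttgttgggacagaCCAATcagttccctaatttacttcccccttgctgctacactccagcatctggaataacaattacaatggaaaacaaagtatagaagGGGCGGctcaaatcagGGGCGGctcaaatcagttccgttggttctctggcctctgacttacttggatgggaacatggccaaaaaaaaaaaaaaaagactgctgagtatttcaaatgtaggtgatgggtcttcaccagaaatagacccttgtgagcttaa
The Rbp7 window held 1 match, a GC box on the reverse strand at position -59 from the start site. The Cd36 window held AGGTCA on the reverse strand at -228 from its start site, CCAAT at -195, and a GC box at both -109 and -93. This Cd36 start site lies inside the extent that the expression table gives the gene. Among all 32851 RefSeq promoter windows, 16.3% held AGGTCA, 35.7% GGGCGG, 37.4% CCAAT and 13.6% TATAAA. These matches are letters only and show no binding.

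The members spanned a wide range of levels in these hearts. Over all 6 libraries, mean FPKM was 1766 for Fabp3, 248 for Cd36, 172 for Lpl, 89.2 for Fabp4, 26.2 for Rbp7, 23.3 for Gpihbp1, 14.9 for Slc27a1, 5.67 for Fabp5 and 2.04 for Angptl4. The library ranges of Cd36 and Lpl overlapped, as did those of Rbp7 and Gpihbp1 and of Gpihbp1 and Slc27a1, and the other neighbours in this order were separated in every library. Fabp3 alone made up 68.9% to 77.3% of the members' summed FPKM in each library. The highest library exceeded the lowest 3.14-fold for Rbp7 and 2.45-fold for Angptl4, and between 1.41-fold and 1.72-fold for the other 7 genes.

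**Figure D1:**
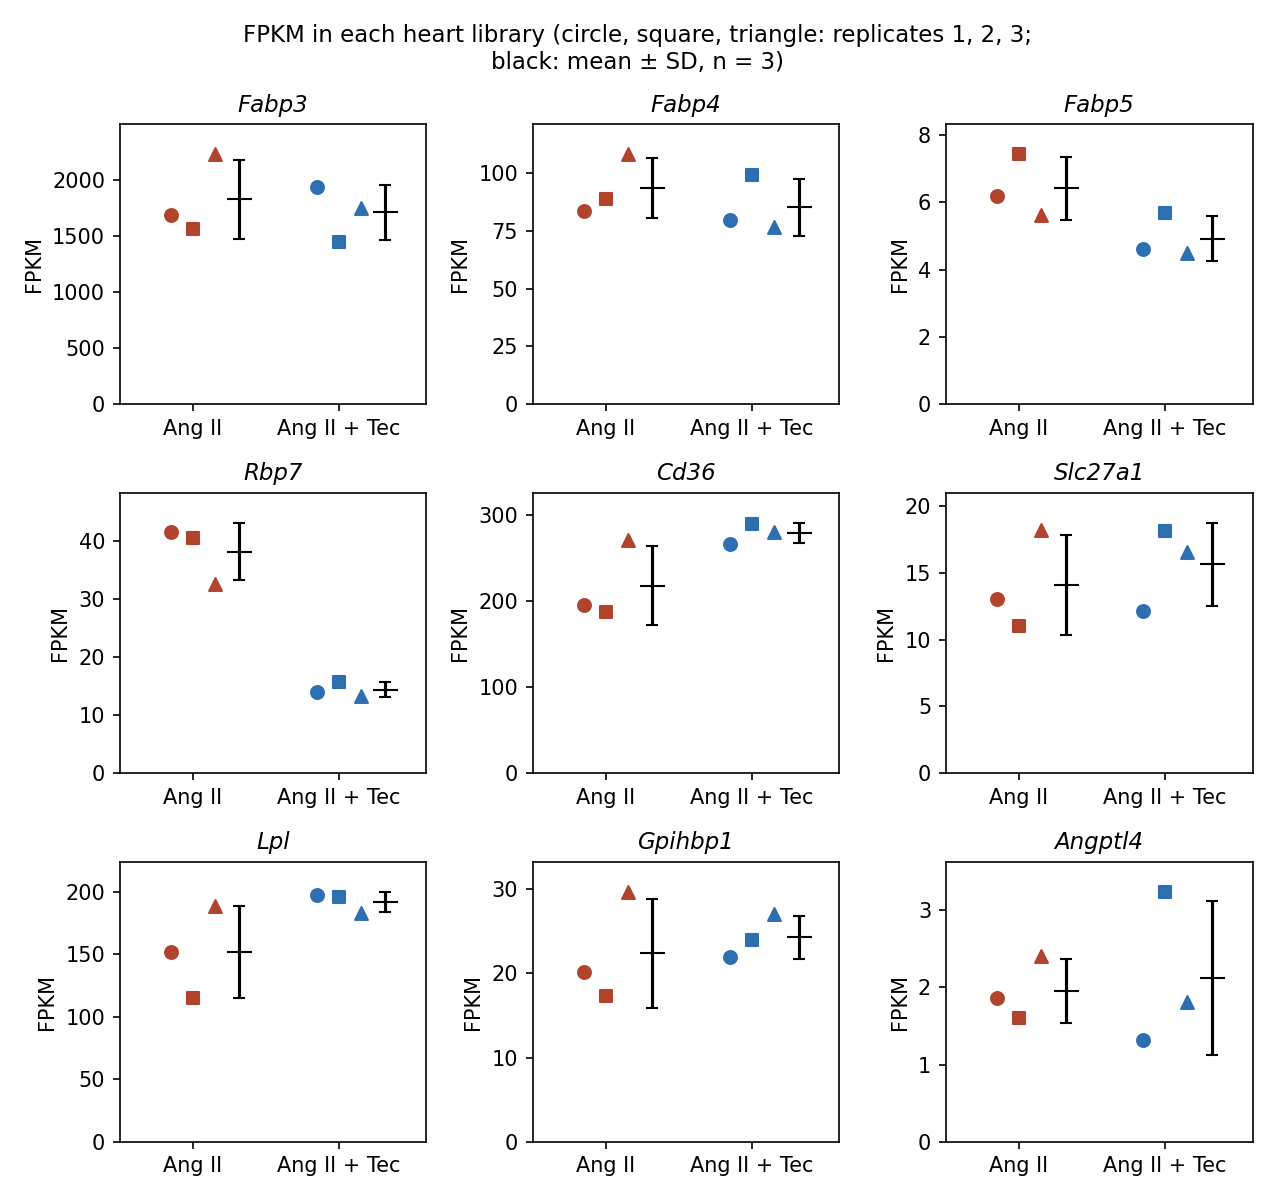
FPKM of each member (y axis, from 0) in the 3 Ang II and the 3 Ang II + Tec libraries, with the symbol giving the replicate number and the black bar the mean ± SD. Rbp7 is the member whose groups are separate, at 32.46 to 41.47 FPKM against 13.22 to 15.75 FPKM, while the groups of the other 8 overlap.

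Rbp7 was the member with the largest difference between the groups. It was at 41.47, 40.42 and 32.46 FPKM without Tec and at 13.99, 15.75 and 13.22 FPKM with it. Every library with Tec was below every library without it. The means were 38.1 ± 4.93 and 14.3 ± 1.3 FPKM (SD, n = 3 each), 2.66-fold apart, and the log2 difference was -1.35 ± 0.135 (SE, limma adjusted p = 0.0234). Only 0.695% of all tested genes had a difference this low or lower. Groups that did not overlap were found for 21.8% of all tested genes (18.9% lower and 2.9% higher with Tec), so a separation by itself was not rare in these libraries. The difference was -1.12 under median-of-ratios scaling relative to the median of all genes, against -1.18 as deposited. It was -1.32 between the libraries with Myl7 above 100 FPKM (Ang II replicates 1 and 2 against Ang II + Tec replicate 2 alone) and -1.20 between those with Myl7 below 2 FPKM (Ang II replicate 3 alone against Ang II + Tec replicates 1 and 3). With 1 library on a side these are values with no test, and the part of atrial RNA in the difference was not tested. Its call depended on single libraries: leaving out Ang II replicate 1 or 2 gave an adjusted p of 0.185 or 0.0712, leaving out Ang II + Tec replicate 1, 2 or 3 gave 0.247, 0.191 or 0.245, and leaving out Ang II replicate 3 gave 0.000755.

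Cell type markers were set beside Rbp7, since in whole heart RNA fewer cells of a type and less RNA per cell cannot be told apart. The summed FPKM of 12 endothelial markers, none of them at 0, was 165, 180 and 163 without Tec and 154, 167 and 150 with it. Rbp7 as a percentage of that sum was 25.1, 22.5 and 19.9 against 9.08, 9.43 and 8.84, so the groups did not overlap by this measure either. How many of all genes separate by it was not computed. Of these 12 markers 3 were lower at an unadjusted p under 0.05 and 0 were higher. All 10 macrophage markers were lower at an unadjusted p under 0.05 (16.5% of all tested genes were), with sums of 261 to 516 FPKM in the Ang II group and 178 to 196 FPKM with Tec and none at 0, and 4 of 7 fibroblast markers were lower at that threshold. Both lists had 0 called genes. Among 6 smooth muscle and pericyte markers and 5 red blood cell markers, 0 reached that threshold in either direction, as did 0 of the 6 adipocyte and 5 atrial markers tested. Of the 10 cardiomyocyte markers, 1 was higher at that threshold. The 7 capillary endothelial markers, given below with Cd36 and Lpl, had 5 higher at that threshold (2.09% of all tested genes were) and 0 lower. The part of the macrophage, fibroblast and capillary endothelial lists in the difference of Rbp7 was not tested.

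The 3 fatty acid binding proteins of the same family had smaller differences. Fabp3, the carrier of the cardiomyocyte cytosol, was at 1685.57, 1563.23 and 2225.88 FPKM without Tec and at 1933.19, 1444.32 and 1743.39 FPKM with it. The highest library was Ang II replicate 3 and the lowest Ang II + Tec replicate 2, and the groups overlapped over most of their range. The difference was -0.09 ± 0.184 as deposited, 0.16 under median-of-ratios scaling and -0.60 under quantile normalization, so its sign depended on the scaling. Leaving out Ang II replicate 3 gave 0.062, and leaving out Ang II + Tec replicate 2 gave 0.026.

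Fabp4 was at 83.67, 88.47 and 108.05 FPKM without Tec and at 79.57, 99.24 and 76.38 FPKM with it. The libraries highest in each group were Ang II replicate 3, which had low adipocyte markers, and Ang II + Tec replicate 2, which had the most. The difference was -0.13 ± 0.153 as deposited and 0.11 under median-of-ratios scaling. Leaving out the first of these libraries gave -0.026, and leaving out the other gave -0.25. The lowest of the treated libraries, replicate 3, left -0.062 when it was dropped, and dropping Ang II replicate 1 left -0.21. Adipoq and Cidec, which define adipocytes, were at 16.19 and 22.14 FPKM in Ang II + Tec replicate 2 and at most 5.16 and 3.28 FPKM in any other library. In Ang II replicate 3, Adipoq was at 0.20 FPKM, Cidec at 0.29 FPKM and 4 of the 10 adipocyte markers at 0. Pparg, of the same list, was at 4.07 FPKM there, the highest of the Ang II group. Fabp4 in that library was the highest of all 6. The part of the adipocyte markers in the values of Fabp4 was not tested.

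Fabp5 was at 6.19, 7.43 and 5.61 FPKM without Tec and at 4.60, 5.69 and 4.48 FPKM with Tec. The groups overlapped by 1 library, since Ang II + Tec replicate 2 lay just above Ang II replicate 3. The difference was -0.32 ± 0.141, and -0.16 relative to the median of all tested genes. Its sign was the same under each scaling (-0.11 under median of ratios, -0.10 under quantile normalization).

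These 4 genes have a common build. Each longest coding transcript has 4 exons, with coding lengths of 396 to 405 bases, and the coding sequences were identical at 49.2% (Fabp5 and Rbp7) to 65.1% (Fabp3 and Fabp4) of aligned positions. Rbp7 shared 53.5% with Fabp4 and 56.6% with Fabp3. The longest identical run between any pair was 14 bases. Of the 50-base stretches of each transcript, 0 occurred in another gene for Rbp7 and Fabp4. For Fabp3 the share was 37.3%, mostly in the pseudogene Fabp3-ps1, which was listed at 25.17 to 46.54 FPKM. For Fabp5 it was 21.1%, in pseudogenes listed at 0.52 FPKM or less or without a row in the table. The share of 37.3% counts stretches of sequence and not reads, so it does not give the size of an error in the level of Fabp3. Fabp3 itself was listed at 1444.32 to 2225.88 FPKM, and how much of its level depends on the placing of shared reads was not measured. Fabp3 also overlaps Zcchc17 and Gm10570 on the opposite strand, and reads of the 3 genes can be told apart there only if strand was used in counting, which is not given in the sources used here. In the coordinates of the table Rbp7 is at chr4:149449687-149454978 (minus strand) and Fabp3 at chr4:130308595-130315463 (plus strand). Fabp5 at chr3:10012548-10016607 (plus strand) and Fabp4 at chr3:10204088-10208576 (minus strand) are close together on chromosome 3.

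Cd36 and Lpl had the highest differences among the members. Cd36 (chr5:17781690-17888801, minus strand) was at 195.52, 187.64 and 270.73 FPKM without Tec and at 266.53, 290.11 and 280.19 FPKM with Tec. Ang II replicates 1 and 2 were low, and Ang II replicate 3 lay among the libraries with Tec. The means were 218 ± 45.9 and 279 ± 11.8 FPKM (SD, n = 3 each), and the difference was 0.37 ± 0.160. It was higher than that of 97.5% of all tested genes, and 0.54 relative to their median.

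Lpl (chr8:68880491-68906934, plus strand) was at 152.10, 114.82 and 188.24 FPKM without Tec and at 197.67, 195.53 and 182.76 FPKM with Tec. The pattern was that of Cd36: Ang II replicate 3 lay within the range of the treated libraries and the other Ang II libraries below it. The means were 152 ± 36.7 and 192 ± 8.06 FPKM (SD, n = 3 each), and the difference was 0.37 ± 0.183. For both genes the spread in the Ang II group, 21% of the mean for Cd36 and 24.2% for Lpl, stood against 4.24% and 4.20% with Tec. Without Ang II replicate 3 the differences were 0.54 for Cd36 and 0.53 for Lpl, and without Ang II replicate 2 they were 0.28 and 0.18. In the same split by Myl7, in which 1 group again has 1 library in each part, the values were unlike and were not tested. Between the libraries with Myl7 above 100 FPKM the difference was 0.60 for Cd36 and 0.56 for Lpl, while between those with Myl7 below 2 FPKM it was 0.013 and 0.014.

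Of 7 capillary endothelial markers, 5 were higher at an unadjusted p under 0.05 (2.09% of all tested genes were), 0 were called and the lowest adjusted p was 0.201 in limma. Their summed FPKM was 149, 142 and 235 without Tec and 274, 264 and 304 with Tec, and no marker was at 0. Timp4 differed by 0.54 ± 0.328 and Meox2 by -0.03 ± 0.139, and neither passed. Aqp1, the water channel of heart capillaries, was at 76.94, 78.08 and 131.99 FPKM against 173.52, 154.72 and 177.59 FPKM. Car4, a carbonic anhydrase of the capillary surface, was at 2.73, 2.25 and 7.39 FPKM against 6.40, 8.05 and 9.03 FPKM. As for Cd36 and Lpl, Ang II replicate 3 was the highest of its group in both markers. As a percentage of the 12 general endothelial markers, Cd36 was 118, 104 and 166 without Tec and 173, 174 and 187 with Tec. Lpl was 92.0, 63.8 and 116 against 128, 117 and 122. Neither overlapped by this measure, Lpl only by 116 against 117, whereas both overlapped in FPKM. The share of all genes that separate by this measure was not computed, so nothing is read from it. The part of capillary endothelium in the differences of Cd36 and Lpl was not tested.

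**Figure D2:**
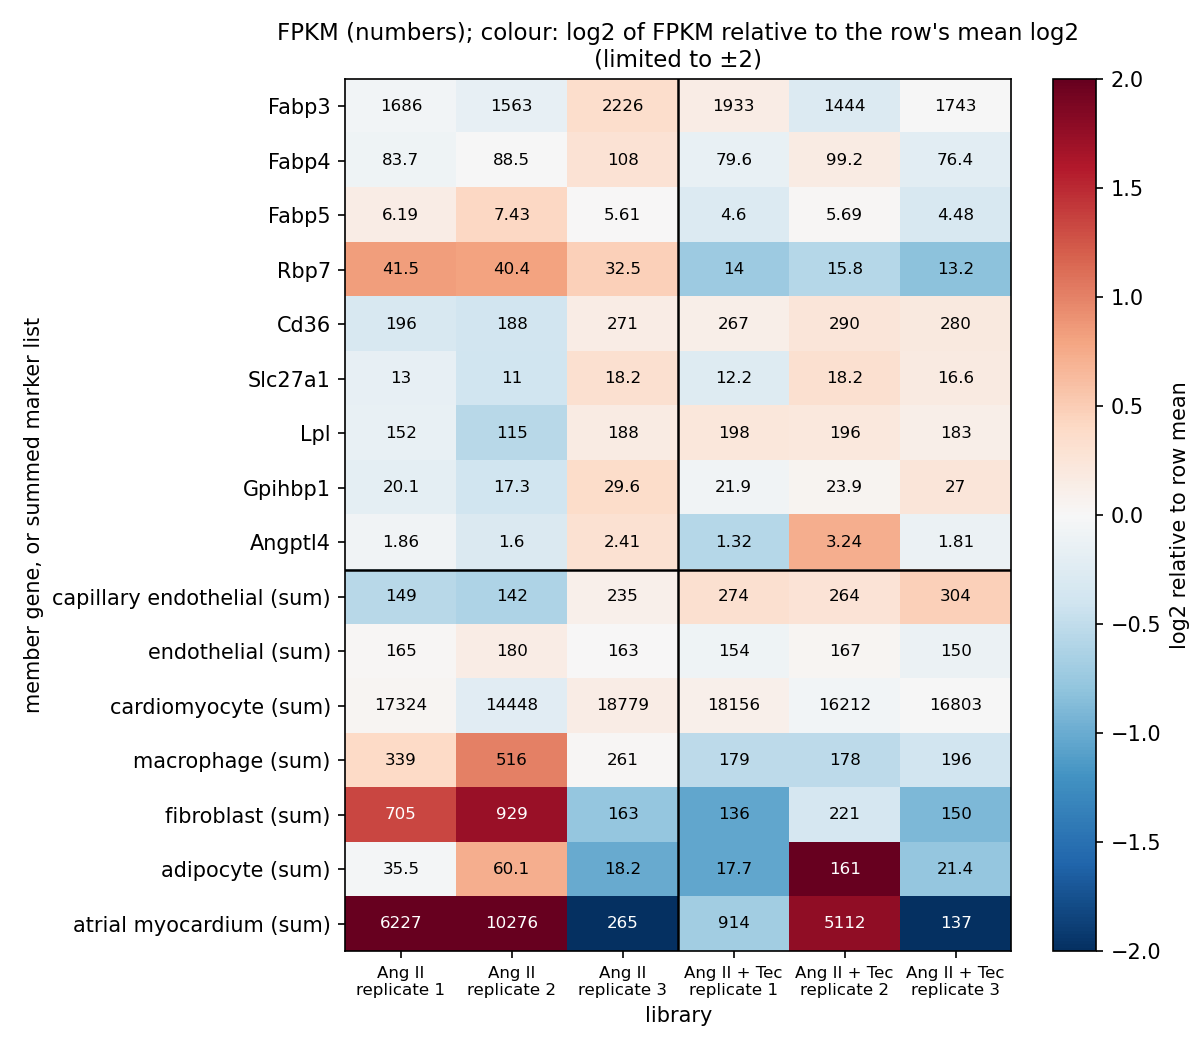
FPKM of the 9 members and summed FPKM of 7 marker lists (rows) in each library (columns), with the number in each cell and the colour giving log2 relative to the mean log2 of the row, limited to 2 either way. Cd36, Lpl and the capillary endothelial sum are low in Ang II replicates 1 and 2, the libraries where the fibroblast sums are 705 and 929, whereas Rbp7 is high in all 3 Ang II libraries.

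The partners of the lipase varied among libraries without a separation of the groups. Gpihbp1 (chr15:75596628-75598213, plus strand) was at 20.08, 17.30 and 29.64 FPKM without Tec and at 21.87, 23.89 and 26.98 FPKM with Tec. Both the lowest and the highest library were of the Ang II group. Its difference was 0.14 ± 0.200, and it was -0.015 without Ang II replicate 2. Angptl4 (chr17:33773750-33781830, minus strand) was at 1.86, 1.6 and 2.41 FPKM without Tec and at 1.32, 3.24 and 1.81 FPKM with Tec. Its highest value was that of Ang II + Tec replicate 2, the library with the most adipocyte RNA. The difference of Angptl4 was 0.04 ± 0.230, and -0.20 without that library. The part of the adipocyte markers in this value was not tested. Slc27a1 (chr8:71568882-71587301, plus strand) was at 13.01, 11 and 18.24 FPKM without Tec and at 12.18, 18.17 and 16.57 FPKM with Tec, a difference of 0.15 ± 0.214. Leaving out replicate 2 of the Ang II group gave 0.001 and leaving out replicate 3 gave 0.34, and leaving out replicate 1 or 2 of the treated group gave 0.31 or 0.041. One library of the treated group lay among the low Ang II libraries and the groups overlapped widely. Within the libraries with Myl7 below 2 FPKM, the differences of Gpihbp1, Slc27a1 and Angptl4 were -0.28, -0.34 and -0.42, opposite to those over all libraries. For the 8 members other than Rbp7 the adjusted p lay between 0.271 and 0.922, which does not show that the groups were alike. Other settings put 3 of them under 0.05, with differences below 1. Without Ang II replicate 3 the limma adjusted p was 0.01 for Cd36 and 0.0263 for Lpl, and with array weights it was 0.0352 for Cd36, 0.0395 for Lpl and 0.0305 for Fabp5. Leaving out Ang II replicate 3 and Ang II + Tec replicate 2 together gave 0.0131, 0.0436 and 0.0214 for these genes. The same settings put many more of all genes at an unadjusted p under 0.05 in limma. These were 5619 of 12900 without Ang II replicate 3, 6074 of 13089 with array weights and 7724 of 13417 without both libraries, against 2439 of 13089 in the main fit. Nothing is therefore read from the 3 members.

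**Figure D3:**
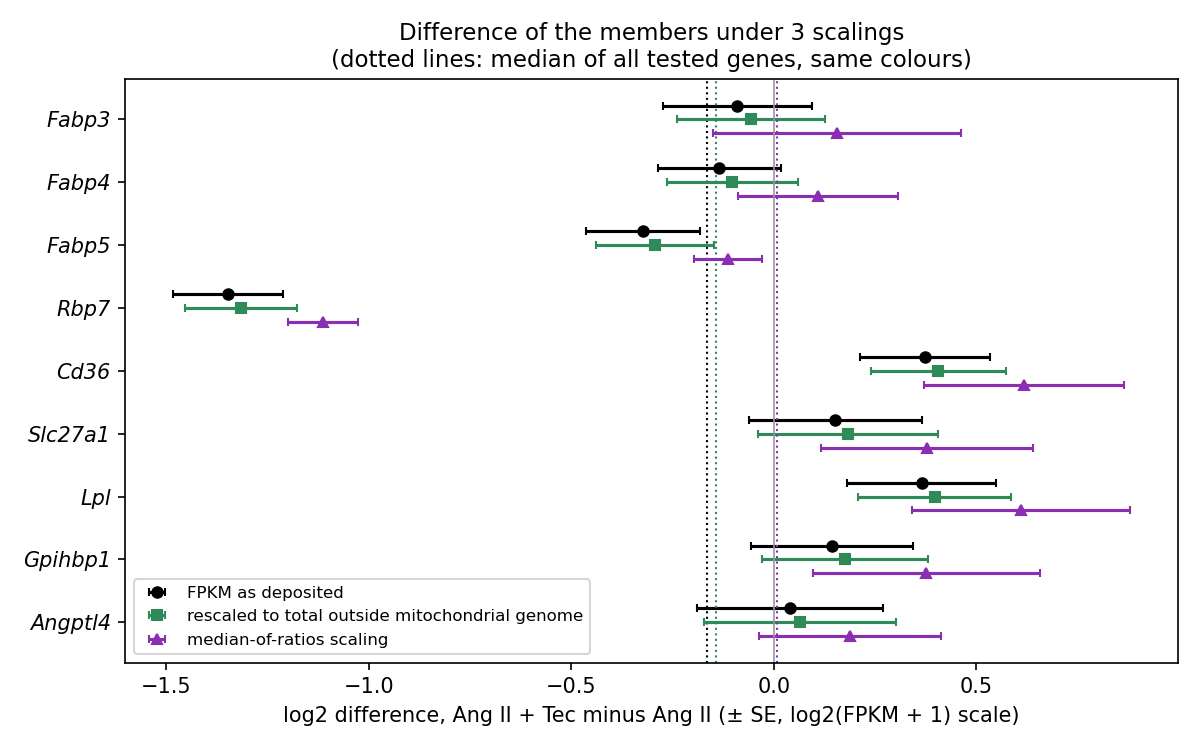
Difference of each member (x axis, log2, Ang II + Tec minus Ang II, with SE bars) for FPKM as deposited, for FPKM rescaled to the total outside the mitochondrial genome, and under median-of-ratios scaling, with dotted lines at the median of all tested genes under each. Rbp7 lies at -1.35 as deposited and far below the dotted line under all 3, Cd36 and Lpl lie above it, and Fabp3 and Fabp4 change sign.

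Relative to the median of all tested genes, 7 of the 9 members were above it as deposited, from 0.03 for Fabp4 to 0.54 for Cd36, and Fabp5 (-0.16) and Rbp7 (-1.18) were below it. The same 7 were above the median under median-of-ratios scaling, and 6 were under quantile normalization, where Fabp3 was at -0.62. The median difference of the members was 0.04.

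Other genes of the pathway were taken from 6 lists, of which 73 of 100 listed genes were tested. In the 6 lists together 0 genes were called, 6 were lower and 3 higher at an unadjusted p under 0.05 (18.6% of all tested genes passed this threshold, 16.5% lower and 2.09% higher), and the lowest adjusted p was 0.223. These counts depended on single libraries. Without Ang II replicate 3, 3 genes were called, 18 were lower and 15 higher, and without Ang II replicate 1, 0 were in either direction. Under median-of-ratios scaling 2 were lower and 11 higher.

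Of the binding proteins for fatty acids and retinoids, 5 of 16 were tested, and 0 passed an unadjusted p under 0.05. Rbp4, the plasma retinol carrier, differed by -0.96 ± 0.723. Dbi, the acyl-CoA binding protein, differed by -0.24 ± 0.136. Scp2, the sterol carrier protein, was at 64.16 to 67.89 FPKM against 71.83 to 76.33 FPKM with Tec, without overlap.

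Among transport and activation genes, 12 of 17 were tested, and 2 were lower at an unadjusted p under 0.05. These were Slc27a4, encoding FATP4, at 6.00, 6.01 and 4.81 FPKM against 4.24, 4.21 and 3.92 FPKM, and Acsl4, an acyl-CoA synthetase, at 3.09, 3.89 and 2.42 FPKM against 2.05, 2.38 and 1.96 FPKM. Acsl5 differed by -0.48 ± 0.244 and Acsl6 by 0.27 ± 0.148. Acsl1, the main acyl-CoA synthetase of the heart, differed by 0.11 ± 0.176, and the abundant Got2 and Cav1 by -0.07 ± 0.135 and -0.02 ± 0.150.

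Of the genes that mature or control the lipase, 11 of 20 were tested, and Angptl2 and Hspg2 were lower at an unadjusted p under 0.05. Angptl2, a secreted relative of Angptl4, was at 31.24, 29.11 and 15.62 FPKM without Tec and at 13.42, 15.04 and 12.48 FPKM with Tec, a difference of -0.79 ± 0.250. Its groups did not overlap, although Ang II replicate 3 lay close to the treated libraries. Hspg2, the basement membrane proteoglycan perlecan, differed by -0.46 ± 0.157. The syndecans Sdc1 and Sdc4 differed by -0.70 ± 0.413 and 0.02 ± 0.365, and Apoe by -0.22 ± 0.379.

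The lipoprotein receptors held 10 tested genes of 11. Vldlr, which binds triglyceride-rich lipoproteins in heart and muscle, was at 14.45, 13.71 and 20.14 FPKM without Tec and at 23.47, 24.31 and 21 FPKM with Tec. Its groups did not overlap, and the difference was 0.50 ± 0.161 (unadjusted p = 0.0161 in limma, adjusted p = 0.224). Scarb1, the HDL receptor, differed by -0.28 ± 0.112 and was lower at an unadjusted p under 0.05. Lrp1 differed by -0.47 ± 0.338, Scarb2 by -0.11 ± 0.168 and Sorl1 by 0.11 ± 0.190.

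Of 20 genes of the lipid droplet, all tested, 12 had a higher and 8 a lower mean, and 1 passed an unadjusted p under 0.05 in each direction. Plin3, a droplet coat protein, was at 18.84, 17.03 and 21.90 FPKM against 27.12, 24.20 and 23.67 FPKM. Hilpda, an inhibitor of the lipase ATGL, was at 5.58, 5.44 and 2.92 FPKM against 2.37, 2.62 and 2.54 FPKM. Pnpla2, which encodes ATGL, differed by 0.42 ± 0.214, Lipe by 0.39 ± 0.213, Dgat2 by 0.22 ± 0.246 and Fitm1 by -0.28 ± 0.218.

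The list of PPAR target genes outside uptake held 15 tested genes, of which 12 had a higher mean with Tec (20% of all tested genes did as deposited), with a median difference of 0.12. Acot2 differed by 0.55 ± 0.277, Hadha by 0.42 ± 0.196, Acaa2 by 0.12 ± 0.218 and Acadl by 0.01 ± 0.130, and Ucp3 had the lowest difference (-0.39 ± 0.341).

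**Figure D4:**
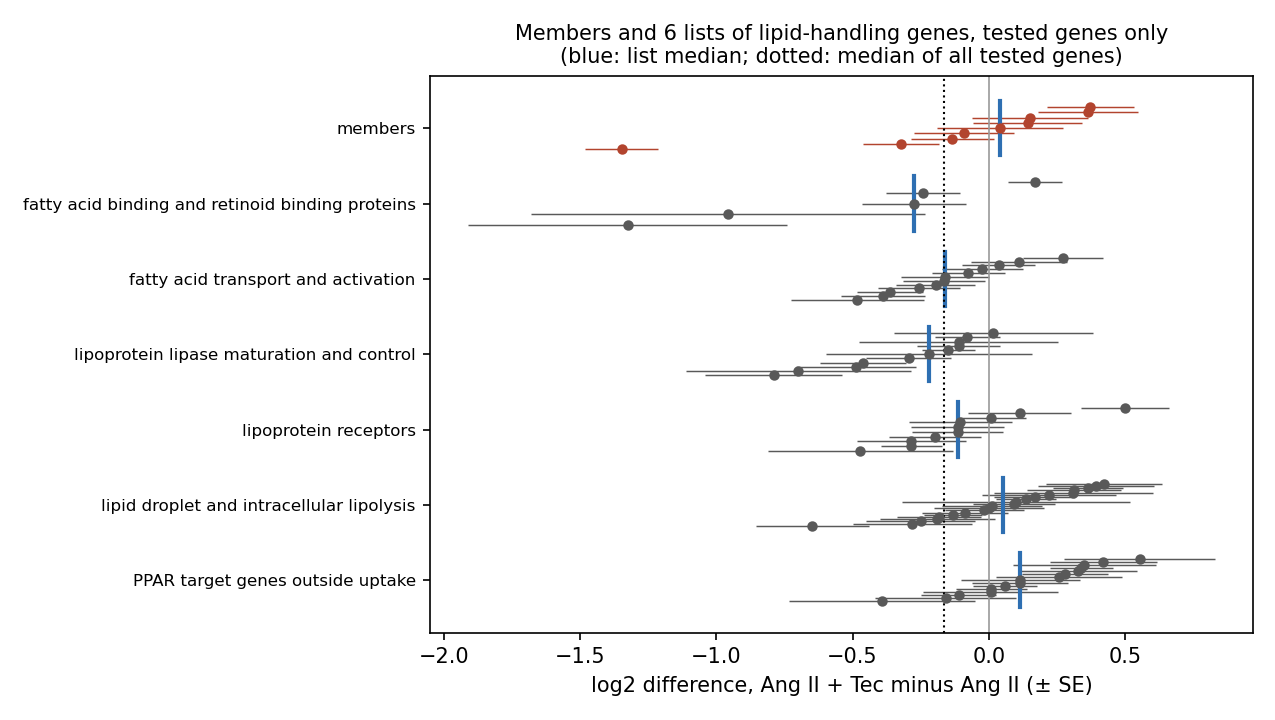
Difference of each tested gene (x axis, log2, Ang II + Tec minus Ang II, with SE bars) in the members and in 6 lists of lipid-handling genes, with the list median in blue and the median of all tested genes dotted. The list medians run from -0.28 for the binding proteins to 0.12 for the PPAR targets, and Rbp7 is the lowest gene of all those plotted.

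The genes whose pattern over the 6 libraries was most like that of each member were read from 4671 protein-coding genes with a mean of at least 5 FPKM, by Pearson's r of log2(FPKM + 1), as a description. With 6 libraries in 2 groups, many genes came close to the patterns of some members. An r of 0.95 or more was reached with Rbp7 by 115 genes, with Fabp5 by 162, with Cd36 by 65 and with Lpl by 58. For the other members such genes were fewer: 25 for Gpihbp1, 14 for Slc27a1, 8 for Fabp3, 5 for Angptl4 and 1 for Fabp4. Rbp7 was nearest to Rplp2, a ribosomal protein gene (0.997), Akt1, a kinase of insulin signalling (0.997), and Ciapin1 (0.996). Akt1 was at 60.12, 56.75 and 52.65 FPKM without Tec and at 35.10, 35.36 and 33.74 FPKM with Tec, the same separation as Rbp7 with a smaller size.

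Fabp3 was nearest to 3 genes of the respiratory chain, Ndufb11 (0.993), Cox6c (0.985) and Cox7c (0.975), all highest in Ang II replicate 3 and lowest in Ang II + Tec replicate 2. Fabp4 was nearest to Cln6 (0.962), Hbs1l (0.944) and Flcn (0.919). For Fabp5 they were Dek (0.996), Arglu1 (0.991) and Stab1 (0.990), a receptor of macrophages and sinusoidal endothelium. Cd36 was nearest to the peroxisomal membrane gene Pxmp2 (0.993), Saraf (0.992) and the capillary marker Car4 (0.990). Nudt7 (0.990) and Phyh (0.989), which act in peroxisomes, were among those nearest to Lpl. Gpihbp1 was nearest to Decr1 (0.995) and Acaa2 (0.994), enzymes of mitochondrial fatty acid oxidation, and to Cabcoco1 (0.979). Slc27a1 was nearest to Depp1 (0.992), Reep1 (0.991) and the droplet protein Plin4 (0.985), all of them low in Ang II + Tec replicate 1 as Slc27a1 was. Angptl4 was nearest to Maf1 (0.972), Pnpla8 (0.960) and Isoc1 (0.956).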

How the data were processed

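Poly(A) RNA of 3 Ang II and 3 Ang II + Tec hearts was sequenced in paired ends. The authors trimmed reads with Cutadapt and deposited FPKM per gene and library. The submitters' processing notes name Bowtie 0.12.2, HISAT2 2.0, StringTie 1.3.0 and the build mm8, with no roles, whereas the deposited coordinates equal those of GENCODE M21 (GRCm38) at both ends for 27947 of 30832 shared genes (90.6%), and for 6 of the 9 members. Lpl, Gpihbp1 and Slc27a1 differ. The labels name a NovaSeq instrument and the methods a HiSeq. The gene names, coordinates, strand and transcript type of the table were used, and no other annotation column was.

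FPKM are not counts, so the genes that reached 0.5 FPKM in 3 or more libraries were fitted with limma 3.58.1 (R 4.3.3) as log2(FPKM + 1), lmFit and eBayes with a trend, and Benjamini-Hochberg adjustment over all 13089. The pseudocount of 1 makes differences of low genes too small. The members and lists were chosen with earlier results of these data known. Named are all members, from each list the genes called, the 2 with the largest difference each way and the 2 highest in FPKM, and the 3 genes most like each member. Some genes under these rules are not reported here. Slc27a4, Hspg2, Plin3, Akt1's values and the marker values quoted singly were added after their values were seen. Correlations with marker sums, planned at first, are not given because the libraries fall into groups. On simulated data, 185 of 200 genes changed by 2 (log2) among 13089 were recovered with 1 false call, and with 0 changed there were 0 calls. The simulated noise was independent between genes, and the changes were put into genes of higher level only. The real libraries share patterns such as that of atrial RNA, and the members differed by less than 2. The simulation thus checks the procedure, and its rates do not carry over to these data. The labels state no pairing of the libraries by the numbers 1 to 3. Deviations of same-numbered libraries from their group means correlated at -0.04, 0.43 and 0.38, which cannot settle it with 3 libraries in each group. Nothing says which tissue piece each library held, so p-values measure the spread between these libraries. Coding sequences were aligned with Biopython 1.88.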

Additional observations from a re-analysis of the deposited data

How the results depend on the processing

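Rbp7 was lower with Tec, and Cd36 and Lpl were higher, under every alternative that was run, and Fabp5 was lower in each. The difference of Rbp7 without filter was -1.35, with an adjusted p of 0.0788 over more genes, so 0 members were called. Leaving out 1 library each time gave -1.46 to -1.28 and 0 to 1 members called. Leaving out an Ang II + Tec library left 0 calls in limma among all genes, beside 1219, 2324 and 1172 at an unadjusted p under 0.05. The sign turned for Fabp3 (0.16 by median of ratios, 0.063 with array weights), Fabp4 (0.11 by median of ratios, 0.10 by quantile normalization), and when leaving out 1 library for Fabp3 (-0.19 to 0.062), Gpihbp1 (-0.015 to 0.36) and Angptl4 (-0.20 to 0.23). The number of all genes called was 21, against 3 without filter, 11 with FPKM of at least 1 in all libraries, 522 with array weights and 0 to 544 without 1 library. The genes of the 6 lists called were 2 with array weights and 0 to 3 without 1 library. At an unadjusted p under 0.05, 2 were lower by median of ratios, 2 by quantile normalization and 5 when rescaled to the total outside the mitochondrial genome. With array weights 19 were lower, and without 1 library 0 to 18. The higher ones were 11 by median of ratios, 12 by quantile normalization and 3 with that rescaling. They were 12 with array weights and 0 to 15 without 1 library. The cause was not tested.

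A fit with the replicate number as a replicate block called 22 genes and found 11 genes of the lists lower in place of 6 and 4 higher in place of 3, with Rbp7 called as before. It is a hint from the data only, since the labels state no pairing of the libraries by number. Alternatives chosen after seeing the data left out Ang II replicate 3 and Ang II + Tec replicate 2 together, which gave 764 calls, 5 of them in the lists, where 34 genes were lower and 13 higher at an unadjusted p under 0.05, with Fabp3 at 0.18 and Angptl4 at -0.10, or compared libraries of like Myl7, which above 100 FPKM put Fabp4 at 0.20, Cd36 at 0.60, Slc27a1 at 0.56 and Angptl4 at 0.64, and below 2 FPKM put Fabp4 at -0.47, Cd36 at 0.013, Lpl at 0.014, Gpihbp1 at -0.28, Slc27a1 at -0.34 and Angptl4 at -0.42. Depth is known only as a ratio between libraries, so no counting interval can be given, which limits Angptl4 and Fabp5 most.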
